A study of Homo sapiens with 6 samples.

Results

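The p53-linked miRNAs miR-34, miR-192 and miR-194 were followed as 9 mature arms of the 1000 counted in miRNA sequencing of HEK 293T cells. They were chosen by name, as both arms of each miR-34 hairpin (a, b and c) and of miR-194, together with miR-192-5p, and all 9 were among the 826 miRNAs whose highest count was above 7, the limit for testing. The choice was made with earlier results of these data known. The study compared a strain without both uridylyltransferases TUT4 and TUT7 (ΔTUT4/7, written in the labels as a TENT3A/B knockout) with wild type (WT) cells, with 3 libraries from biological replicates of each strain and no treatment of either. HEK 293T is a transformed human embryonic kidney line that carries the SV40 large T antigen, a viral protein that binds p53, in both strains. The ΔTUT4/7 cells were 1 strain made in earlier work, and the genotype could not be checked here, as neither enzyme is measured by miRNA reads. The tests therefore measure spread between libraries of the same line. Other differences between the lines cannot be told apart from an effect of losing TUT4 and TUT7. Amounts are given as CPM, the count of a miRNA in every 1000000 miRNA counts of its library. In bulk RNA of this kind, fewer cells with a miRNA and less of it per cell cannot be told apart.

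A mature miRNA is cut from a hairpin by DROSHA and DICER, and either the 5′ strand (5p) or the 3′ strand (3p) of the hairpin can be loaded onto an Argonaute protein. It recognises target mRNAs mainly through its seed, bases 2 to 8 from its 5′ end. p53 activates transcription of the miR-34 genes and of the miR-192 and miR-194 cluster after DNA damage. miR-34 represses mRNAs for cell cycle and survival proteins such as CDK6, MET and BCL2, and miR-192 and miR-194 have been linked to repression of MDM2, the ubiquitin ligase that degrades p53. TUT4 and TUT7 add uridines to the 3′ ends of RNAs, including miRNA precursors and mature miRNAs.

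The mature sequences show which arms share a seed and can therefore be added up. They are given 5′ to 3′ as RefSeq lists them on GRCh38.p14, in lower case with the seed in capitals, and 8 of the 9 arms, all but miR-34c-5p, had an entry. The arms of the miR-34 hairpins are listed with their seed relatives from the miR-449 hairpins:
hsa-miR-34a-5p: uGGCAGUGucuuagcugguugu
hsa-miR-449a: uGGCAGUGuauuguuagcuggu
hsa-miR-449b-5p: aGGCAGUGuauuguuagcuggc
hsa-miR-34b-5p: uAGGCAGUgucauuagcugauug
hsa-miR-449c-5p: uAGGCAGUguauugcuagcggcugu
hsa-miR-34a-3p: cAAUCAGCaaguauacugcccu
hsa-miR-34b-3p: cAAUCACUaacuccacugccau
hsa-miR-34c-3p: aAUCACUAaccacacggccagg

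The seed GGCAGUG of hsa-miR-34a-5p was shared with miR-449a and miR-449b-5p among the 897 of 1000 measured miRNAs with a RefSeq sequence. The seed AGGCAGU of hsa-miR-34b-5p was shared with miR-449c-5p only among these 897. Both seeds hold the run GGCAGU, shifted by 1 base. The 3p arms of the miR-34 hairpins had 3 different seeds, each found in no other measured miRNA with a sequence.

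The miR-192 and miR-194 arms are followed by miR-215-5p, the seed relative of miR-192-5p:
hsa-miR-192-5p: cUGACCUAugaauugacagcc
hsa-miR-215-5p: aUGACCUAugaauugacagac
hsa-miR-194-5p: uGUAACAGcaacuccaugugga
hsa-miR-194-3p: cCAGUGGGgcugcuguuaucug

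miR-192-5p and miR-215-5p share the seed UGACCUA. The reads were trimmed to 18 nt before they were mapped, and over the first 18 bases these miRNAs differ by 1 substitution, C1A, with miR-192-5p first and positions counted from 1 at the 5′ end. The relatives miR-449a and miR-449b-5p also differ by 1 substitution there, U1A, with miR-449a first. Among the members with a sequence other than miR-192-5p, the nearest measured miRNA with a sequence differed at 5 or more of the first 18 bases. This compares bases at the same position, and miR-34c-5p, which had no sequence, was not compared. Shifted by 1 base, miR-34b-3p and miR-34c-3p are identical at 17 of 21 aligned bases.

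The members come from 6 hairpins at 4 loci. MIR34A lies at chr1:9151668-9151777 on the minus strand, in an exon of the long non-coding RNA MIR34AHG. MIR34B (chr11:111512938-111513021) and MIR34C (chr11:111513439-111513515) lie on the plus strand in exon sequence of MIR34BHG, 417 bases apart, and opposite an intron of BTG4. MIR192 (chr11:64891137-64891246) and MIR194-2 (chr11:64891355-64891439) lie on the minus strand in exon sequence of MIR194-2HG, 108 bases apart. MIR194-1 (chr1:220118157-220118241) lies close to MIR215 (chr1:220117853-220117962), both on the minus strand opposite an intron of IARS2. MIR192 and MIR194-2 are on the study's list of group II hairpins, those described as needing a single added nucleotide before DICER cuts them, while MIR34A, MIR34B, MIR34C, MIR194-1 and MIR215 are not.

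The miR-194 hairpins are shown because they give the same 5p arm, in capitals, from different surrounding sequence:
MIR194-1: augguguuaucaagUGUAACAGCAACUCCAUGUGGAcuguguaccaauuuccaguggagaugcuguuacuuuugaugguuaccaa
MIR194-2: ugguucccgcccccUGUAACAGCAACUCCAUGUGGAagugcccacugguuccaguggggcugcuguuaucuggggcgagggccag

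A read of hsa-miR-194-5p can therefore come from either locus, whereas miR-194-3p comes from MIR194-2.

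All 6 arms of the miR-34 hairpins were decreased in abundance in ΔTUT4/7 cells, the arms of miR-34b and miR-34c by far more than those of miR-34a. The miR-192 and miR-194 arms did not move with them: miR-192-5p did not pass the test, miR-194-5p was decreased by less than 2-fold and miR-194-3p was increased. A miRNA was called at a change of at least 2-fold with an adjusted p under 0.05 in edgeR's quasi-likelihood test. By this rule 6 of 9 members were called lower, against 13.6% of the 826 tested miRNAs, and 1 of 9 was called higher, against 16.5%. With no limit on fold, 7 members were lower, against 21.9% of all tested miRNAs, and 1 was higher, against 23.2%. The libraries of the strains did not overlap for 8 of the 9 members, against 58.4% of all tested. The median log2 fold change was -2.41 over the members and 0.01 over all tested miRNAs. Most members are paired strands of the same hairpins, and MIR34B and MIR34C share a transcript, so the members are not independent of each other. They were chosen with earlier results of these data known, so these shares are no unbiased test of a p53-linked set.

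**Figure D1:**
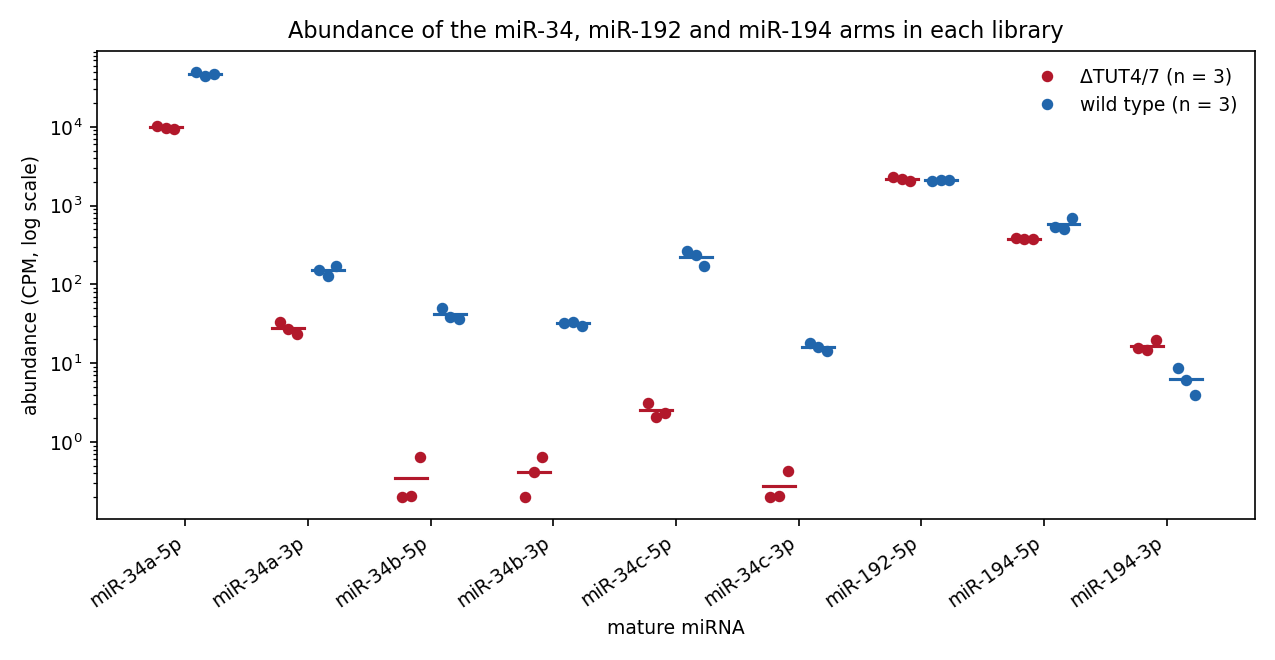
Abundance of the 9 arms in CPM, on a log axis, in the 3 ΔTUT4/7 libraries (red) and the 3 wild type libraries (blue), with short lines at the means. All 6 miR-34 arms sit lower in ΔTUT4/7 cells, the miR-34b and miR-34c arms below 4 CPM, while the points of miR-192-5p overlap.

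hsa-miR-34a-5p, the main product of its hairpin, had 10356, 9758 and 9338 CPM in the ΔTUT4/7 libraries and 49609, 44173 and 46221 CPM in the wild type libraries. It was the second most abundant of all 1000 miRNAs in wild type cells by mean CPM, and at rank 25 in ΔTUT4/7 cells it was still the most abundant member. The log2 fold change was -2.25 (SE 0.11, edgeR adjusted p = 9.94e-09). In share of a library, it went from 4.42% to 4.96% of the counts in wild type cells to 0.934% to 1.04% in ΔTUT4/7 cells.

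hsa-miR-34a-3p, the rarer strand, had 33.7, 27.4 and 23.7 CPM in ΔTUT4/7 cells and 150.7, 129.3 and 170.3 CPM in wild type cells. The strains did not overlap. Its log2 fold change was -2.41 (SE 0.20, edgeR adjusted p = 1.61e-06), so both strands of the miR-34a hairpin fell by similar factors.

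The transcript of miR-34b and miR-34c gave far fewer reads than miR-34a in both strains, and almost none in ΔTUT4/7 cells. hsa-miR-34c-5p, its most abundant arm, had counts of 16, 10 and 11 in the ΔTUT4/7 libraries against 1154, 1865 and 737 in the wild type libraries. The log2 fold change was -6.44 (SE 0.27, edgeR adjusted p = 3.39e-09). Over pooled counts, the rate was 88.5 times as high in wild type cells, with an exact 95% interval of 64.1 to 125.9 that covers counting error only. The wild type libraries, although spread from 169.9 to 261.6 CPM, all lay far above the highest ΔTUT4/7 library at 3.15 CPM.

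The other 3 arms of these hairpins were close to the lowest countable level in ΔTUT4/7 cells. hsa-miR-34b-5p had counts of 1, 1 and 3 there and 219, 307 and 159 in wild type cells, with a ratio of pooled rates of 119.4 (95% counting interval 50.9 to 368.9). hsa-miR-34b-3p had counts of 1, 2 and 3 against 142, 269 and 130, a ratio of 78.6 (35.9 to 215.1). hsa-miR-34c-3p had counts of 1, 1 and 2 against 80, 129 and 62, a ratio of 59.1 (22.8 to 218.3). No library of one strain reached the range of the other for any of these arms. The fitted log2 fold changes were -6.82 (SE 0.37) for miR-34b-5p, -6.20 (SE 0.34) for miR-34b-3p and -5.76 (SE 0.39) for miR-34c-3p, with edgeR adjusted p of 3.17e-08, 3.17e-08 and 2.21e-07. Without ΔTUT4/7 replicate 3, which held 3 of the 5 counts of miR-34b-5p, its fold change was -7.52, and on the log2(CPM + 1) scale of limma-trend the changes of these 3 arms were -4.99, -4.55 and -3.75. With so few counts left, the intervals of the pooled ratios overlap, and their order gives no ranking of the arms.

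**Figure D2:**
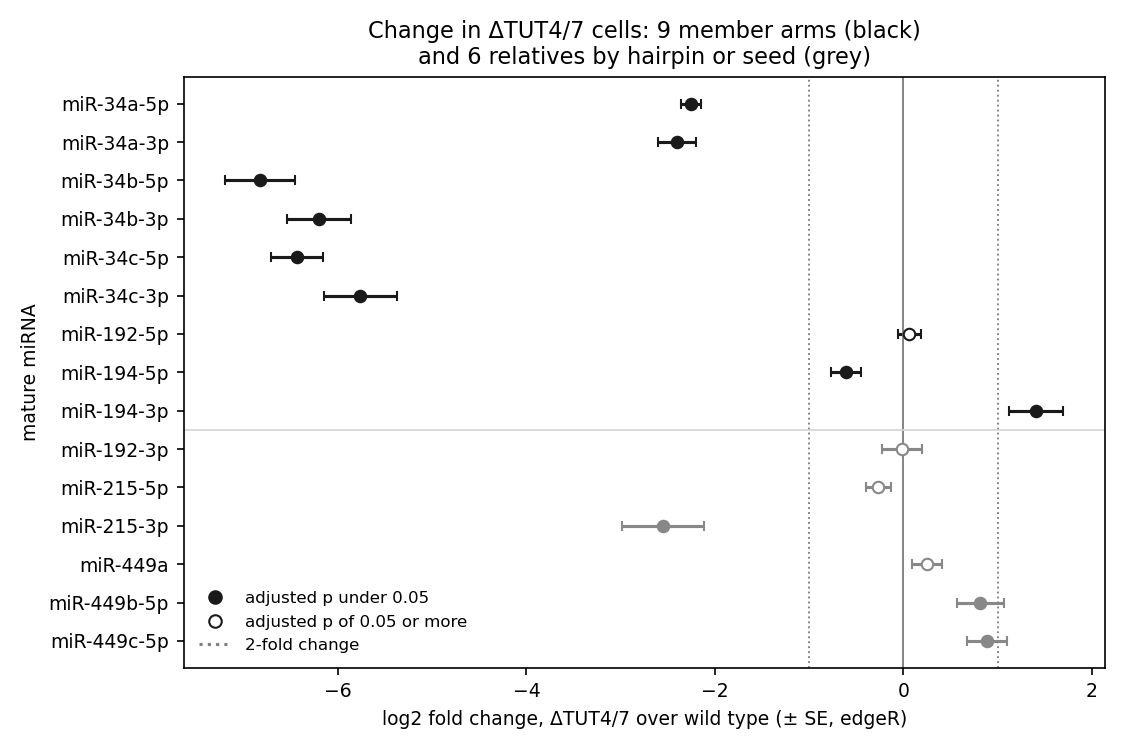
Log2 fold change of the 9 member arms (black) and 6 relatives by hairpin or seed (grey), ΔTUT4/7 over wild type, with edgeR standard errors. Filled points have an adjusted p under 0.05 and dotted lines mark a 2-fold change. The miR-34b and miR-34c arms lie from -6.82 to -5.76, the miR-34a arms at -2.25 and -2.41, and no miR-449 arm lies below 0.

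Whether the miR-34 loci fell by the same factor was tested by fitting every miRNA relative to miR-34a-5p, with its count as the library size. This ratio within a library does not depend on the total. Of the 8 other members, 7 differed from miR-34a-5p at an adjusted p under 0.05, against 88.1% of the 825 other tested miRNAs, so that a difference from miR-34a-5p is the usual case and not particular to the members. Beyond its decrease, miR-34c-5p was lower by a further 18.4-fold (log2 -4.20, SE 0.27, edgeR adjusted p = 2.65e-08) and miR-34b-5p by 24.8-fold (-4.63, SE 0.42, 3.84e-07), or -5.42 without ΔTUT4/7 replicate 3. The 3p arms miR-34b-3p and miR-34c-3p were at -4.01 (SE 0.40) and -3.60 (SE 0.46). miR-34a-3p was at -0.16 (SE 0.19, edgeR adjusted p = 0.433), with a 95% interval of -0.54 to 0.21 from the normal approximation.

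**Figure D3:**
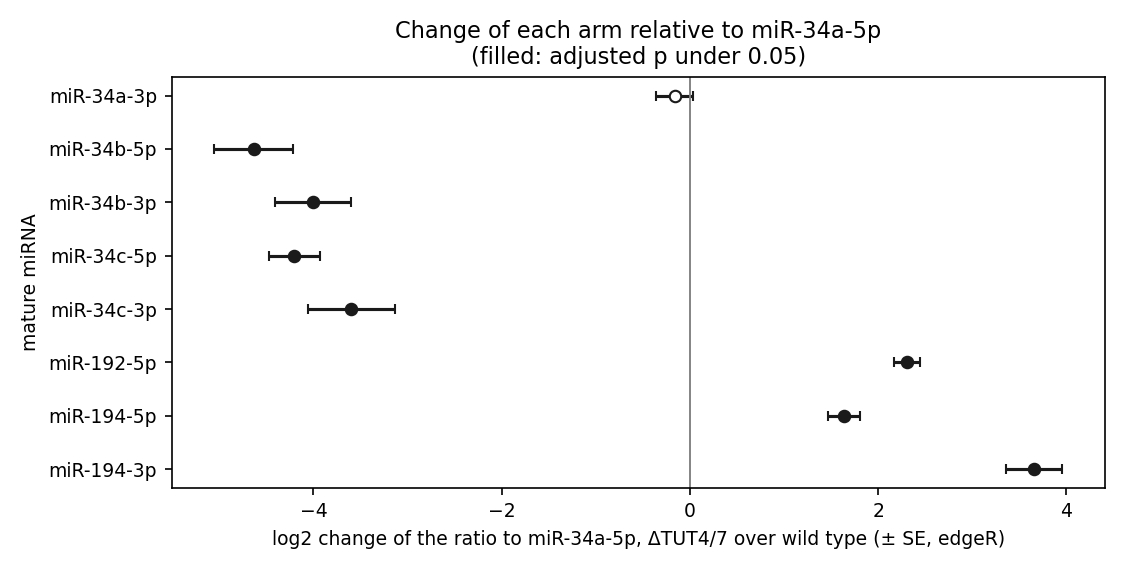
Change of each arm relative to miR-34a-5p between ΔTUT4/7 and wild type cells, in log2 with edgeR standard errors. The miR-34b and miR-34c arms lie from -4.63 to -3.60, miR-34a-3p is at -0.16 (open point), and miR-192-5p, miR-194-5p and miR-194-3p lie from 1.64 to 3.66.

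In reads, miR-34b and miR-34c together made up 0.721%, 0.723% and 0.538% of all miR-34 counts in the wild type libraries and 0.0360%, 0.0297% and 0.0433% in the ΔTUT4/7 libraries. The hairpins that share MIR34BHG could be compared with each other only roughly, since they had 14 to 19 counts together in each ΔTUT4/7 library. The ratio of miR-34b to miR-34c counts, both arms summed, was 0.118, 0.273 and 0.462 in ΔTUT4/7 cells and 0.293, 0.289 and 0.362 in wild type cells. The wild type values lie within the ΔTUT4/7 range. The difference of the mean log2 ratios was -0.35 (2-sided exact permutation test, p = 0.70; 3 against 3 libraries cannot give less than 0.10), and it became 0.18 without ΔTUT4/7 replicate 1.

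The window from 250 bases before to 50 after the RefSeq start of MIR34BHG, the transcript that holds the hairpins with the largest decreases among the members, is at chr11:111510352-111510651 on the plus strand of GRCh38.p14. It was searched on both strands for the p53 half-site, a motif of 10 letters, and holds 1, in capitals:
MIR34BHG: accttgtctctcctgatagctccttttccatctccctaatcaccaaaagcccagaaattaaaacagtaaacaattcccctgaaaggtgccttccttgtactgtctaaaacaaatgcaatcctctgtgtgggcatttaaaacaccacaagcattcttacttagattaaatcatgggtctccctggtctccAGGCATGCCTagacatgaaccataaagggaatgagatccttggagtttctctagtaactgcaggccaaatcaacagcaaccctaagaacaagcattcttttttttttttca

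The match begins 61 bases before the start. The same search found no match in the windows of MIR34AHG and MIR194-2HG, and 2329 of 35116 RefSeq promoter windows of this length (6.63%) hold one. A match is only a match of letters, and binding was not measured.

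hsa-miR-192-5p, which is enriched in kidney, liver and gut, had the second highest level of the members in both strains. It had 2302, 2186 and 2043 CPM in the ΔTUT4/7 libraries and 2062, 2090 and 2103 CPM in the wild type libraries. The ranges overlap, and the log2 fold change was 0.06 (SE 0.12, edgeR adjusted p = 0.707), with a 95% interval of -0.18 to 0.30. Its other strand miR-192-3p was at 14.9 ± 1.98 and 15.1 ± 1.09 CPM (SD, n = 3 each; log2 fold change -0.02, SE 0.21, edgeR adjusted p = 0.958), and its direction changed between scalings. Relative to miR-34a-5p, miR-192-5p was 4.95-fold higher in ΔTUT4/7 cells (log2 2.31, SE 0.14, edgeR adjusted p = 1.81e-08).

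hsa-miR-194-5p, whose reads can come from the transcript that also holds MIR192 or from MIR194-1, had 382.9, 380.9 and 374.5 CPM in ΔTUT4/7 cells. It had 540.6, 508.2 and 690.1 CPM in wild type cells. The strains did not overlap, and the wild type libraries were the more spread. The log2 fold change was -0.61 (SE 0.16, edgeR adjusted p = 0.00743), which is less than 2-fold. Scaled to totals without the let-7 family, it was -0.39 with an adjusted p of 0.0603 in edgeR.

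hsa-miR-194-3p, the minor strand, moved the other way. It had 15.4, 14.8 and 19.6 CPM in ΔTUT4/7 cells, from 78, 71 and 92 counts, and 8.61, 6.15 and 3.92 CPM in wild type cells, from 38, 49 and 17 counts. Every ΔTUT4/7 library was above every wild type library. The log2 fold change was 1.41 (SE 0.28, edgeR adjusted p = 0.00182), and it was the only member called higher.

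Within the library, the miR-194 arms differed from miR-192-5p in opposite directions. Fitted relative to miR-192-5p, all 8 other members differed at an adjusted p under 0.05, against 43.2% of the 825 other tested miRNAs. miR-194-5p was lower by 1.59-fold (log2 -0.67, SE 0.16, edgeR adjusted p = 0.00650) and miR-194-3p was higher by 2.56-fold (1.35, SE 0.30, 0.00448). The count of miR-194-5p was 0.166, 0.174 and 0.183 times that of miR-192-5p in the ΔTUT4/7 libraries and 0.262, 0.243 and 0.328 times in the wild type libraries. These ratios do not overlap, and the difference of -0.66 in mean log2 ratio had p = 0.10 in the 2-sided exact permutation test, the smallest value that 3 against 3 libraries allow.

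The balance of the strands was compared over the 200 hairpins with both arms tested, of which 16% changed their ratio at an adjusted p under 0.05 (limma on log2 ratios with 0.5 added to each count). Of the 4 member hairpins with both arms, 1 changed, that of miR-194. Its 5p arm had 24.9, 25.8 and 19.1 times the counts of the 3p arm in ΔTUT4/7 cells and 62.8, 82.6 and 176.1 times in wild type cells. The ratio fell by 2.06 on the log2 scale (SE 0.37, limma adjusted p = 0.00741). This limma adjusted p stayed under 0.05 in every alternative. It reached 0.0462 with the replicate number as a block and 0.0479 without ΔTUT4/7 replicate 3. The log2 change itself was -1.63 without wild type replicate 3, which had the highest ratio, and -2.37 without wild type replicate 1. Because the 5p reads can come from MIR194-1 or MIR194-2, and were not assigned to either, this ratio of arms need not be that of the strands of a single hairpin.

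For miR-34a the 5p to 3p ratio was 307.3, 355.6 and 394.4 in ΔTUT4/7 cells and 329.1, 341.7 and 271.4 in wild type cells. These values overlap, and the log2 change was 0.16 (SE 0.20, limma adjusted p = 0.626; 95% interval -0.23 to 0.55). The changes of miR-34b (-0.61, SE 0.37, limma adjusted p = 0.283) and miR-34c (-0.93, SE 0.45, 0.190) did not pass the test and rest on 1 to 16 counts an arm in the ΔTUT4/7 libraries. The value of miR-34c depends on the added count. With 1 added in place of 0.5 it was -1.23 (limma adjusted p = 0.0636).

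**Figure D4:**
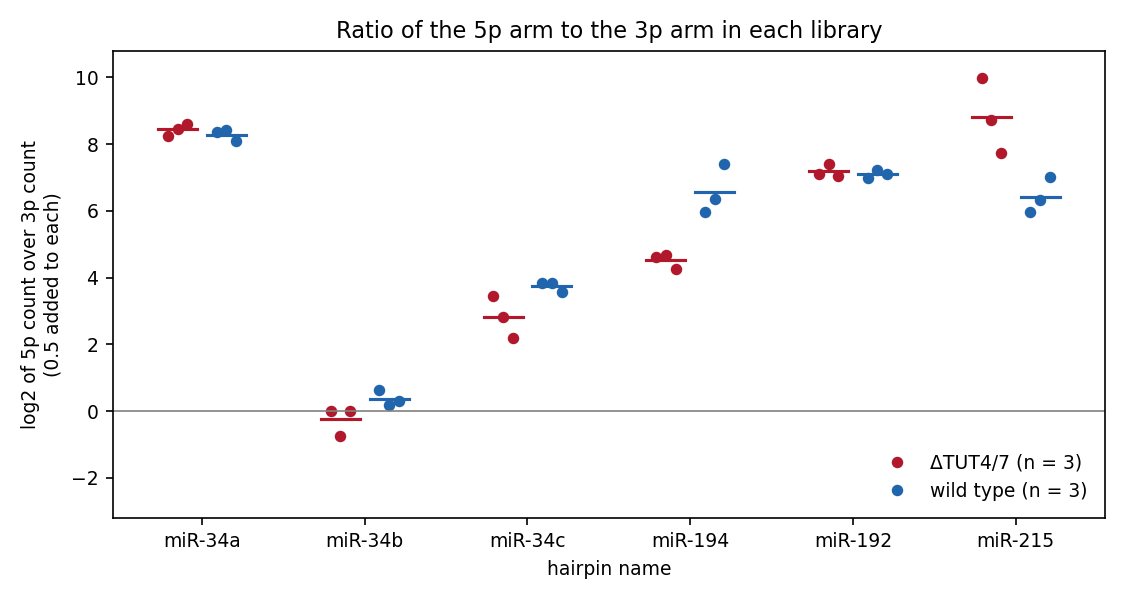
Log2 ratio of the 5p to the 3p count, with 0.5 added to each, in the 3 ΔTUT4/7 libraries (red) and the 3 wild type libraries (blue) for the member hairpins, and for miR-192 and miR-215, whose 3p or both arms are relatives; lines mark the means. miR-34a and miR-192 overlap between strains, miR-194 is lower in ΔTUT4/7 cells (mean 4.52 against 6.58) and miR-215 is higher (8.81 against 6.43).

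Of 8 relatives that share a hairpin, a cluster or a seed with a member, 6 were measured and tested, while miR-449b-3p and miR-449c-3p were not among the measured miRNAs. Of the 6, 1 was called lower, against 13.6% of all tested miRNAs, and 0 were called higher, against 16.5%, while 2 more were higher by less than 2-fold, and 3 did not pass the test. Their median log2 fold change was 0.12. miR-449a, which has the seed of miR-34a-5p and is known from ciliated cells, averaged 162.3 ± 12.7 CPM in the ΔTUT4/7 and 136.5 ± 15.7 CPM in the wild type libraries (SD, n = 3 each; log2 fold change 0.25, SE 0.16, edgeR adjusted p = 0.225). miR-449b-5p and miR-449c-5p, from the same intron of CDC20B, were increased by 0.82 (SE 0.25, edgeR adjusted p = 0.0180) and 0.89 (SE 0.21, 0.00489) on the log2 scale. Both passed the 2-fold limit with totals that exclude let-7, at 1.04 and 1.12, and miR-449c-5p also without wild type replicate 2, at 1.01. The adjusted p of miR-449b-5p was 0.0666 in DESeq2 and 0.0694 in edgeR without ΔTUT4/7 replicate 2, and that of miR-449a was 0.0317 in edgeR with totals that exclude let-7. Counts of miR-449b-5p were low, at 40, 43 and 40 in the knockout libraries and 22, 38 and 20 in the others. Those of miR-449a were 769, 848 and 746, then 564, 1012 and 671. As these arms differ at 1 of the 18 bases mapped, reads of miR-449a could be counted as miR-449b-5p, which was not tested. No miR-449 arm was decreased, although miR-449a and miR-449b-5p have the seed of miR-34a-5p and miR-449c-5p that of miR-34b-5p.

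miR-215-5p, from the cluster that holds MIR194-1, had 656.0 ± 39.4 and 787.7 ± 30.0 CPM (SD, n = 3 each; log2 fold change -0.26, SE 0.13, edgeR adjusted p = 0.124). Its strand miR-215-3p was lower, with counts of 3, 7 and 13 in ΔTUT4/7 cells and 53, 79 and 27 in wild type cells (log2 fold change -2.55, SE 0.44, edgeR adjusted p = 6.5e-04, and -3.19 without ΔTUT4/7 replicate 3). Among the minor strands of these paralogous clusters, miR-194-3p was higher, miR-215-3p was lower, and miR-192-3p did not pass the test. The arm ratio of miR-215 rose by 2.39 on the log2 scale (SE 0.55, limma adjusted p = 0.0161), and this call was lost in 4 of the 6 fits that left out 1 library, with adjusted p of 0.0535 without ΔTUT4/7 replicate 1, 0.0732 without ΔTUT4/7 replicate 2, 0.0553 without wild type replicate 1 and 0.0778 without wild type replicate 2.

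The miRNAs that share a seed were added up where a sequence was at hand, so that miR-34c-5p is in none of these sums. For GGCAGUG, the sum of hsa-miR-34a-5p, miR-449a and miR-449b-5p was 4.69-fold lower in ΔTUT4/7 cells, at 9988 ± 507 against 46809 ± 2744 CPM (SD, n = 3 each). miR-34a-5p gave 98.1% to 98.5% of this sum in ΔTUT4/7 cells and 99.7% in each wild type library.

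For AGGCAGU, the sum was 59.7, 62.6 and 58.7 CPM in ΔTUT4/7 cells and 86.4, 75.6 and 59.5 CPM in wild type cells, and these ranges overlap. hsa-miR-34b-5p gave 51.0% to 61.6% of it in wild type cells and 0.330% to 1.09% in ΔTUT4/7 cells, where miR-449c-5p gave nearly all. For UGACCUA, the sum of miR-192-5p and miR-215-5p was 2833 ± 169 CPM and 2873 ± 51.4 CPM (SD, n = 3 each), and miR-192-5p gave 76.7% to 76.9% of it in ΔTUT4/7 cells and 72.1% to 73.2% in wild type cells.

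**Figure D5:**
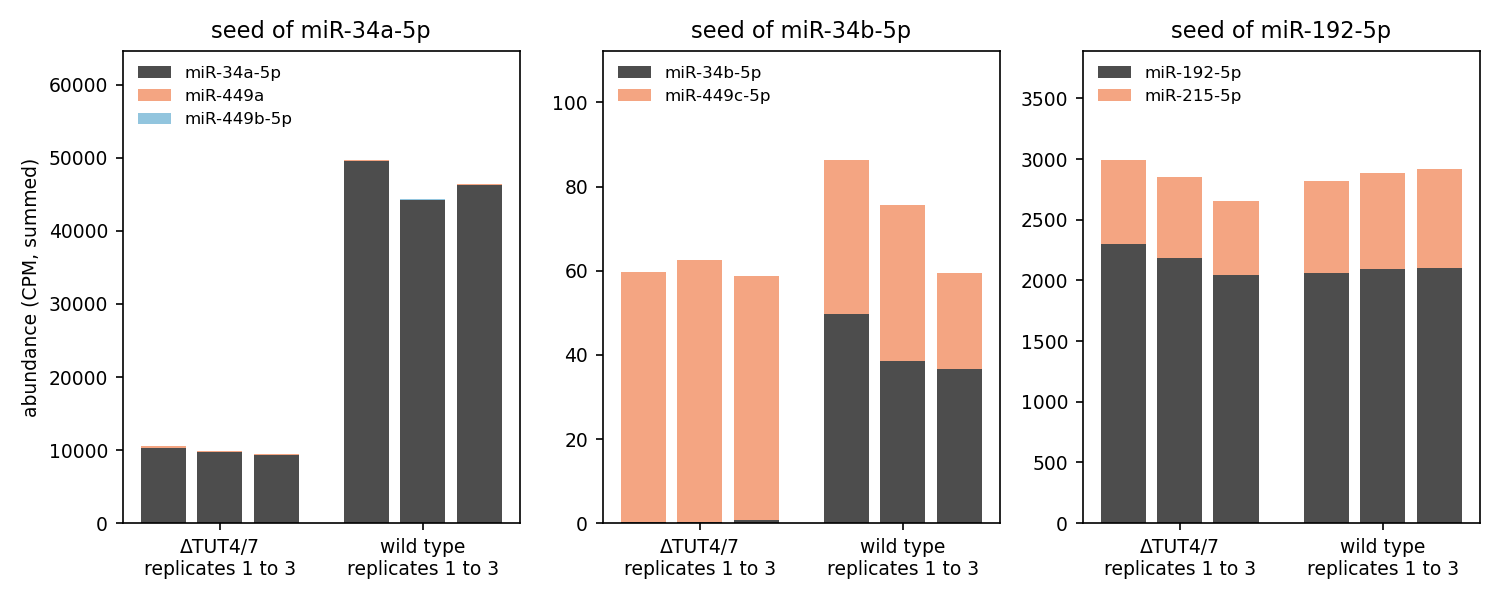
Summed abundance in CPM of the measured miRNAs that share a seed, without miR-34c-5p, as bars for each of the 3 ΔTUT4/7 and 3 wild type libraries, split by miRNA and each panel with its own axis from 0. The first sum falls with miR-34a-5p, the second keeps 58.7 to 62.6 CPM in ΔTUT4/7 cells almost without miR-34b-5p, and the third overlaps between strains.

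Other miRNAs known to be induced, processed or otherwise regulated through p53 were not called at a larger share than all tested miRNAs in either direction. Of 18 such arms listed, 14 were measured and tested, and miR-143-5p, both arms of miR-145 and miR-1246 were not among the measured miRNAs. Of the 14, 1 was called lower, against 13.6% of all tested miRNAs, and 2 were called higher, against 16.5%, while 2 more were lower and 1 higher by less than 2-fold, and 8 did not pass the test, with a median log2 fold change of 0.04. miR-143-3p was called lower (2.04 ± 1.03 against 11.8 ± 1.13 CPM, SD, n = 3 each; log2 fold change -2.51, SE 0.35, edgeR adjusted p = 1.43e-04).

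miR-141-5p (log2 fold change 1.37, SE 0.34, edgeR adjusted p = 0.00609) and miR-200c-5p (2.06, SE 0.55, 0.00958), minor strands of the epithelial miR-200 family, were called higher at means of 5.14 and 2.07 CPM in ΔTUT4/7 cells. Their counts were low. miR-141-5p had 26, 27 and 22 in ΔTUT4/7 cells and 12, 11 and 9 in wild type cells. miR-200c-5p had 10, 7 and 13 against 2, 4 and 2, so its fold change rests on a wild type level close to the lowest countable one. miR-16-5p, a cell cycle regulator and one of the most abundant miRNAs in these cells, was lower by less than 2-fold (-0.51, SE 0.09, edgeR adjusted p = 8.79e-04), as was its cluster partner miR-15a-5p (-0.56, SE 0.14, 0.00627). miR-22-5p was higher by less than 2-fold (0.84, SE 0.20, 0.00456). The 8 that did not pass were miR-107, miR-15a-3p, miR-16-1-3p, miR-141-3p, miR-200c-3p, miR-22-3p and both arms of miR-605, with log2 fold changes from -0.78 to 0.70.

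In the order of mean CPM, the members ran in wild type cells from miR-34a-5p through miR-192-5p, miR-194-5p, miR-34c-5p, miR-34a-3p, miR-34b-5p, miR-34b-3p and miR-34c-3p to miR-194-3p. Of these neighbours, miR-34c-5p and miR-34a-3p overlapped between libraries. In ΔTUT4/7 cells the first 3 kept their places, miR-34a-3p, miR-194-3p and miR-34c-5p followed, and miR-34b-3p, miR-34b-5p and miR-34c-3p overlapped at the end with 0.277 to 0.418 CPM on average. miR-194-3p was thus the rarest member in wild type cells and the fifth most abundant in ΔTUT4/7 cells. Its rank does not reflect its increase, since the miR-34b and miR-34c arms averaged 2.53 CPM or less in ΔTUT4/7 cells. That is below the mean of miR-194-3p in wild type cells, 6.23 CPM. These are levels of 18 nt read counts, and differences in how well each sequence is captured in a library were not corrected.

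For the 4 major arms, the profile over the 6 libraries was compared with those of 404 miRNAs above 10 CPM in a strain, none of them a member, as the root mean square difference of log2(CPM + 0.5) after centring each profile. Nearest to miR-34a-5p were miR-204-5p (0.24), miR-152-3p (0.24) and miR-187-3p (0.26). Nearest to miR-34c-5p were miR-196a-1-3p (0.32), miR-296-3p (0.65) and miR-296-5p (0.75). In the knockout strain these averaged only 0.277, 1.92 and 1.37 CPM, and they passed the limit of 10 CPM through wild type cells alone. At such levels the added 0.5 CPM is a large part of the value. These distances and their order therefore depend on it and do not show equal fold changes. miR-192-5p was most like miR-16-2-3p (0.05), miR-374b-3p (0.06) and miR-181a-3p (0.07), and miR-194-5p was most like miR-421 (0.03), miR-365a-3p (0.08) and miR-365b-3p (0.09). The members themselves were left out of these lists.

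The libraries held 4338558 to 7967606 counts, and replicates of a strain differed by more than sampling noise. The share of let-7 with miR-98 was 19.2% to 19.7% in ΔTUT4/7 cells and 5.57% to 6.36% in wild type cells, and that of the 9 members was 1.18% to 1.31% and 4.72% to 5.27%. Scaling to totals without these let-7 counts moved the median change over all 826 miRNAs by 0.22 on the log2 scale, from 0.01 to 0.23, and the calls from 112 lower and 136 higher to 81 lower and 183 higher. With these totals the log2 fold changes of the miR-34 arms were still lower by more than 2-fold, with miR-34a-5p at -2.03, and miR-192-5p was at 0.29. The miR-16-5p counts of the wild type libraries are deposited rounded to 3 digits, which bears on the totals and on the value of miR-16-5p itself.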

How the data were processed

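Mature miRNAs were sequenced from 3 libraries each of ΔTUT4/7 and wild type HEK 293T cells, prepared with a QIAseq miRNA kit. Per the labels and methods, the authors cut reads to 18 nt, mapped them to hg38 with Bowtie 1.0.0 and quantified them on mature miRNAs in Partek Flow 10.0.22. The deposited values are estimated counts from its expectation-maximization model, which splits reads that match several miRNAs. All were whole numbers and were used as deposited. The use of molecular identifiers is not stated in what was read, so intervals from counts cover counting error only. A deposited list of miRNAs was not used.

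Libraries were grouped by their labels. miRNAs with a highest count above 7 (826 of 1000) entered a quasi-likelihood test in edgeR 4.0.16 and R 4.3.3, with library totals of 4338558 to 7967606 counts, factors of 1 and Benjamini-Hochberg adjustment over the tested miRNAs. A call needed an adjusted p under 0.05 and a 2-fold change. Relative changes used the count of miR-34a-5p or miR-192-5p as library size over the same miRNAs, so an error in that count is shared by all of them. Arm ratios were fitted with limma 3.58.1 over 200 hairpins. Single ratios were compared by exact permutation (scipy 1.17.1). A count of 3, taken as the floor, is 0.377 to 0.691 CPM. The edgeR, DESeq2 and limma fits, with the relative and arm ratio fits, were tested on simulated counts.

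Sequences, promoter windows and hairpin positions are from RefSeq (GRCh38.p14, the assembly of hg38), and host genes from GENCODE 44. The text names every member, the relatives, the other p53-linked miRNAs, and the 3 miRNAs most like each of 4 major arms. The members and lists were chosen with earlier results of these data known. The alternatives were TMM and RLE factors, totals that exclude the let-7 family with miR-98, DESeq2 1.42.0, limma-trend on log2(CPM + 1), no filter, filterByExpr, the replicate number as a block, each library left out, and other added counts, filters and sums for the ratios.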

Additional observations from a re-analysis of the deposited data

How the results depend on the processing

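The counts of members called, 6 lower and 1 higher, were the same under every alternative run, and each member kept its direction. After the let-7 family was taken out of the totals, 7 members in place of 8 had an adjusted p under 0.05, the one lost being miR-194-5p. The log2 fold change of miR-34a-5p ranged from -2.29 to -2.03, that of miR-34b-5p from -7.52 to -4.99 and that of miR-194-3p from 1.20 to 1.68. With the same totals, 3 relatives were called in place of 1, 2 of them higher (miR-449b-5p at 1.04 and miR-449c-5p at 1.12), and miR-192-3p turned to 0.21. miR-192-3p also turned to 0.021 with TMM factors, and ranged from -0.10 to 0.086 over the libraries left out in turn. When wild type replicate 2 was dropped, 2 relatives were called, 1 of them higher, which was miR-449c-5p at 1.01. Over all such fits, the relatives called ranged from 1 to 2 and those called higher from 0 to 1. With filterByExpr, 1 other p53-linked miRNA was called higher in place of 2, with fewer miRNAs tested, and with let-7 out of the totals 3 were. The log2 ratio of miR-34b to miR-34c differed between strains by -0.80 to 0.18 with a library left out and reversed to 0.18 without ΔTUT4/7 replicate 1. The arm ratio of miR-192 ranged from -0.026 to 0.16 in the same way. The causes were not tested.

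Same-numbered libraries did not deviate together (correlations of -0.17, -0.15 and -0.25 over 391 miRNAs), and the main fit did not pair them. With deviations centred within each strain, this check could miss a weak pairing. With the replicate number as a block, 6 members were called lower and 1 higher, and the arm ratio change of miR-215 had a limma adjusted p of 0.0721. Depth limits the miR-34b and miR-34c arms, with 1 to 16 counts in each ΔTUT4/7 library.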
